A study of Mus musculus with 15 samples.

Results

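Cytoplasmic RNA taken late after stimulation (60 and 120 min) was compared with cytoplasmic RNA taken early (15 and 30 min) in mouse bone marrow-derived macrophages. The cells were grown from the marrow of C57BL/6 mice of mixed sex with M-CSF, the growth factor that drives marrow cells to macrophages. Stimulation was with lipid A (100 ng/ml), which is the portion of lipopolysaccharide sensed by Toll-like receptor 4, and an unstimulated library (0 min) served only as reference. No genetic change was labelled. The study held 15 libraries, 1 for each of chromatin, nucleoplasmic and cytoplasmic RNA at each of 5 times. Each side of the comparison was therefore 2 libraries of different times, and no time had a replicate. A gene was taken as tested when it reached 1 RPKM (reads per kilobase of counted length, scaled to library depth) in one of the 4 stimulated libraries, which 9213 of the 10020 listed transcripts did. It was called higher late when both late values lay above both early values, and lower late when both lay below. Where a gene is called, the error that can be set against the difference is the distance between the times of a side and the counting error of the reads. P-values here measure only the spread between these times, and the labels do not say whether the times were separate cultures.

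Lipid A signals through Toll-like receptor 4 by an adaptor arm that ends in NF-kappaB and MAP kinases, and by a second arm that ends in the transcription factor IRF3. The first arm switches on immediate early genes and many cytokines. The second yields interferon-beta, which acts back on the macrophage through its receptor and induces antiviral genes. RNA in the cytoplasm is processed message that has left the nucleus, so its level at a given time holds what was made before and has not yet been degraded.

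The 5 cytoplasmic libraries held 15.6, 16.8, 17.5, 18.2 and 19.9 M reads in order of time. The listed exons took 28.3% to 34.0% of the reads up to 30 min, 44.4% at 60 min and 29.4% at 120 min. The median gene stood 0.04 and 0.14 (log2 ratio to 0 min) above the unstimulated library at 15 and 30 min. It stood 0.39 above at 60 min and 0.49 below at 120 min (log2 ratio -0.49), so the late libraries were shifted in opposite directions. Of the 4 libraries, 60 min held the highest value for 6104 genes and 120 min the lowest for 6864. Counts are therefore also given after each library was rescaled by its median log2 ratio to 0 min. Of 12 macrophage markers, 12 were listed, with summed levels of 3579.4 to 5260.7 RPKM up to 60 min and 2170.8 RPKM at 120 min. Neutrophil markers summed to 37.4 to 77.4 RPKM (9 of 13 listed) and T cell markers to 11.9 to 37.8 RPKM (4 of 12). Of the B cell and dendritic cell lists only Cd79b and Bst2 were listed, and no erythroid marker was. The 2 listed stromal markers summed to 0.3 to 4.2 RPKM, of which Vcam1 was higher late. The part of these marker shifts in the results below was not tested.

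In all, 1326 genes (14.4% of those tested) were higher late and 1087 (11.8%) were lower late, while 6800 overlapped between the sides. In this bulk RNA, a change in the number of cells of a type and a change in RNA per cell cannot be told apart. The median distance between the nearest values was 0.32 (log2 of RPKM + 0.5) for the higher genes and -0.17 for the lower ones. A distance of at least 2-fold, called a 2-fold gap here, was left by 169 genes higher late (1.83%) and by 19 genes lower late (0.206%). Just inside that limit lay Stard7 at 1.002 and Malat1 at -1.025, and just outside Pcgf5 at 0.996 and Lpar6 at -0.996, all as log2 gaps. After rescaling, 2449 genes (26.6%) were higher late and 2260 (24.5%) lower late, and no gene had switched direction. Of the genes called on the deposited values, 1083 kept the higher call and 923 the lower call. All 169 and all 19 genes with a 2-fold gap kept their call, and 126 and 16 of them kept the gap. Higher genes made up 55% of those called on the deposited values, 52% after rescaling to the median and 28.8% after rescaling to the upper quartile. Leaving out the 60 min library gave 6946 genes lower late, and leaving out the 120 min library gave 6777 higher late.

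**Figure D1:**
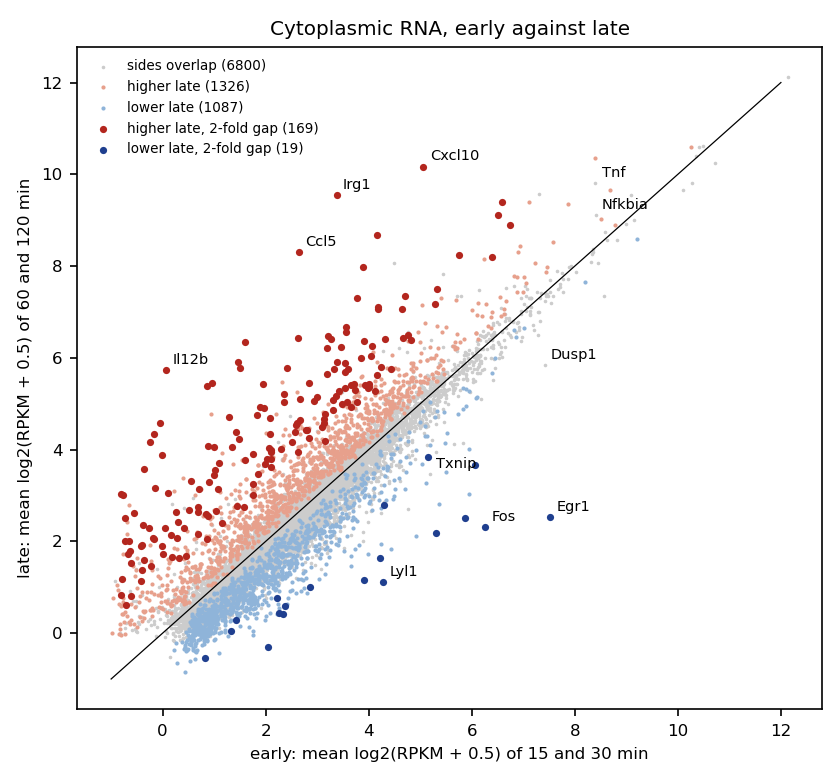
Mean log2(RPKM + 0.5) of the late cytoplasmic libraries (60 and 120 min, y axis) against that of the early ones (15 and 30 min, x axis), 1 point per gene tested. Light red and light blue points are genes higher or lower late without overlap, dark points those with a 2-fold gap, grey points genes whose sides overlap, and the line marks equality; the 169 dark red genes outnumber the 19 dark blue ones.

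The largest gap belonged to Il12b, which encodes the p40 subunit of interleukin-12 and interleukin-23. Its levels, from the unstimulated library through 15, 30, 60 and 120 min, were 0.132, 0.183, 1.11, 47.8 and 57.6 RPKM. The 60 min value was 42.9-fold the 30 min value, with a 95% counting interval of 31.1 to 60.8. Irg1, which makes the antimicrobial metabolite itaconate, went through 2.38, 2.58, 34.4, 490.4 and 1125.2 RPKM in the same order of times. Its late values lay at least 14.3-fold (13.5 to 15.0) above both early ones. Ccl5, a chemokine for T cells and monocytes, measured 2.66, 3.71, 8.84, 103.6 and 965.5 RPKM, an 11.7-fold gap (9.35 to 14.9). Both late libraries lay far above both early ones for each of these genes, with 30 min already above 0 min and 120 min the highest.

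The next largest gaps joined surface, antiviral and matrix genes. Cd40, the costimulatory receptor through which T cells activate macrophages, stood at 0.791, 0.802, 2.37, 30.2 and 62.6 RPKM from 0 to 120 min. Oasl1, an oligoadenylate synthetase-like protein, stood at 2.06, 2.08, 2.45, 27.7 and 128.1 RPKM. Mmp13, a collagenase, reached 23.1 and 73.2 RPKM late after 0.713 and 2.22 RPKM early. The small GTPase gene Rnd1 measured 0.291, 0.379, 0.415, 6.06 and 11.6 RPKM. Further gaps of more than 2.3 (log2) were found for Gbp5, Ccl22, Rsad2, Peli1, Rapgef2, Ifi205, Traf1 and Otud1, which completed the 15 leading genes. Ccl22 had no read at 0 and 30 min and 4 reads at 15 min, then 3.46 and 16.4 RPKM, and its 26.3-fold gap had a counting interval of 9.98 to 98. Peli1 (an E3 ubiquitin ligase of Toll-like receptor signalling) stood at 6.98 and 12 RPKM early and at 71.3 and 101.4 RPKM late, a 5.96-fold gap (5.51 to 6.45). Rapgef2, which activates the small GTPase Rap1, was level between the late times (25.8 and 24.7 RPKM) after 2.69 to 3.97 RPKM up to 30 min.

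**Figure D2:**
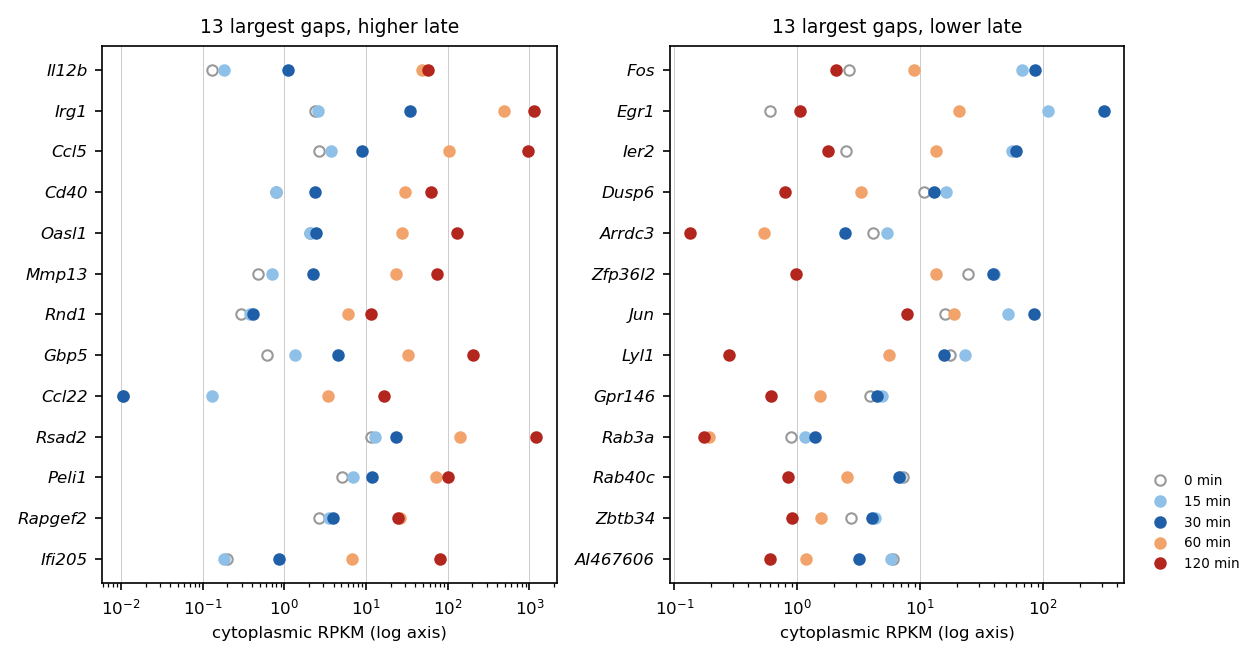
Cytoplasmic RPKM (log x axis) in each of the 5 libraries for the 13 genes with the largest gap in each direction, 1 row per gene; the open circle is the 0 min reference, blue circles 15 and 30 min, orange and red circles 60 and 120 min. No orange or red circle lies among the blue ones. Of the genes lower late, Fos, Egr1, Ier2 and Jun have both early values at least 2-fold above 0 min. Ccl22 at 0 and 30 min is drawn at the deposited stand-in for no reads.

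Among the 169 genes with a 2-fold gap upward, 123 still lay within 2-fold of the unstimulated level in both early libraries. Another 44 lay within 2-fold at 15 min and had passed 2-fold at 30 min. Both late values were at least 2-fold above 0 min for 166 of the 169, and 112 were higher at 120 than at 60 min. These genes were not of unusual counted length, with a median of 2670 bases against 2761 over all genes tested. The median level at 0 min was 2.74 RPKM, against 4.56 RPKM over all genes tested. Genes low early could pass the 1 RPKM filter through their late values alone, which may favour a low start in this set.

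Timing relative to 0 min ordered the calls, as a description of the same values that the calls use. Of 22 genes that first stood 4-fold above 0 min at 15 min, 2 were higher late and 5 lower late. Of 68 that first did so at 30 min, 22 were higher and 1 was lower late. The counts for those first 4-fold above at 60 min were 122 higher and none lower of 159, and at 120 min 139 higher and none lower of 165. Of the 174 genes that stood 4-fold below 0 min at some time, 172 first did so at 120 min, and 88 of those were lower late.

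NF-kappaB genes were mostly higher late. NF-kappaB is held in the cytoplasm by IkappaB proteins, and its own target genes include both its subunits and its inhibitors. Of 18 members tested, 12 (66.7%, against 14.4% of all genes) were higher late and none lower, 9 with a 2-fold gap, and all 12 stayed higher after rescaling. The median late minus early difference was 1.80 (log2), against -0.11 over all genes tested. All 5 subunit genes were higher late. Rel measured 4.42, 5.45, 17.8, 78.2 and 45.9 RPKM from 0 to 120 min. Nfkb2 measured 7.95, 8.93, 13.8, 37.9 and 69.9 RPKM, and Nfkb1 16.7, 17.9, 18.9, 41.7 and 73.9 RPKM. Relb stood at 4.64 and 6.35 RPKM early and at 20.6 and 20.3 RPKM late. Rela had the smallest subunit gap (0.43 in log2), with 27.2 RPKM at 30 min and 36.8 RPKM at 60 min.

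The inhibitor genes were divided. Nfkbia, which encodes IkappaB-alpha, measured 17.1, 151.4, 752.2, 820.0 and 373.2 RPKM, so its 120 min value fell between the early ones and the sides overlapped. Tnfaip3 (the ubiquitin-editing enzyme A20) overlapped in the same way, with 6.93 and 256.5 RPKM early and 322.7 and 157.6 RPKM late. Nfkbiz and Nfkbid overlapped too, with 120 min values of 76 and 3.41 RPKM that lay between early ones of 13.8 and 191.4 RPKM and of 2.55 and 27.6 RPKM. By contrast Nfkbie (IkappaB-epsilon), with 2.32 and 8.74 RPKM early and 36.5 and 36.3 RPKM late, did not overlap, nor did Nfkbib. Traf1 (a signalling adaptor), Tnip3 (an A20-binding inhibitor), Bcl3 (an atypical IkappaB) and Birc3 (a ubiquitin ligase) were higher late with 2-fold gaps. Cyld and Tnip2 overlapped and varied between 2.72 and 5.83 RPKM over all 5 libraries.

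**Figure D3:**
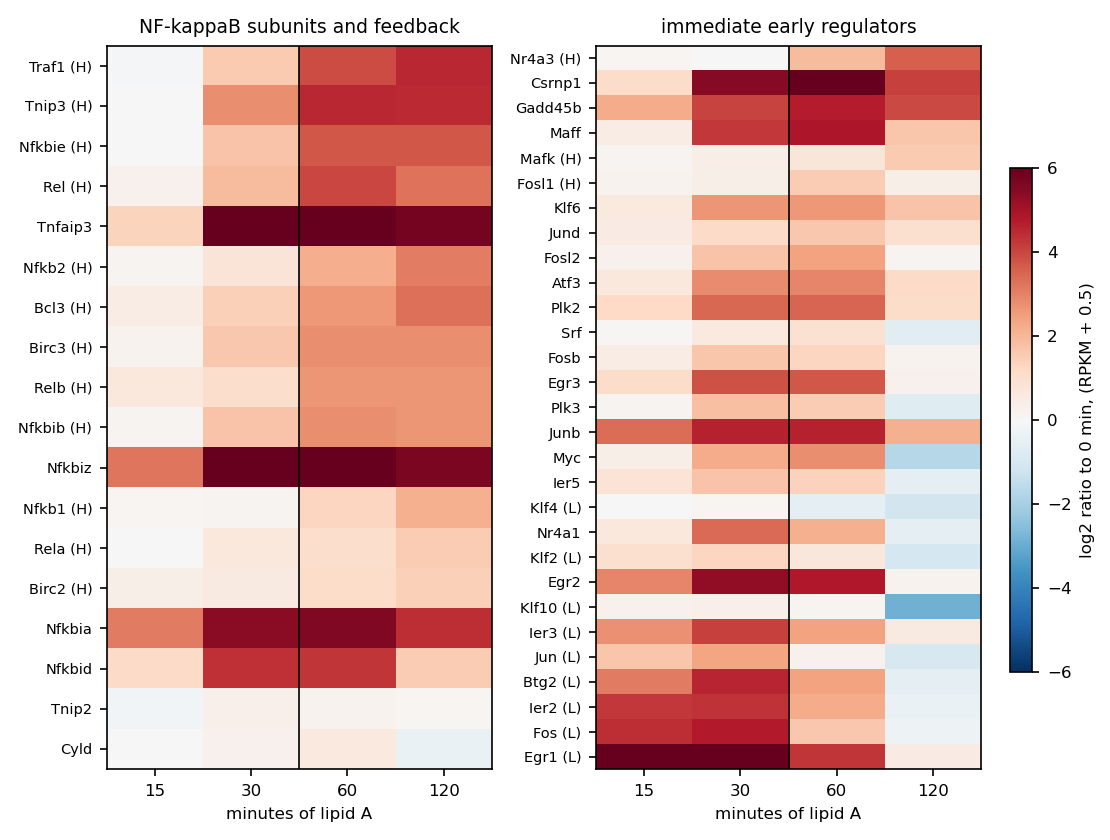
Log2 ratio to the 0 min cytoplasmic library, from RPKM + 0.5, at 15, 30, 60 and 120 min for the members tested of the NF-kappaB list (left, 18 genes) and the immediate early list (right, 29 genes); colours are capped at 6 in both directions, the black line parts early from late, H marks genes higher late and L genes lower late. Each of the 5 subunit genes is darker at both late times than at both early ones, and Nfkbia, Tnfaip3 and Nfkbiz are dark at 30 min as well as late. Egr1, Fos and Ier2 are darker at both early times than at both late ones.

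Cytokine genes were higher late in 10 of 22 cases (45.5%, against 14.4% of all genes) and lower in none, 7 with a 2-fold gap. Il6 measured 0.177 RPKM at 0 min, was without reads at 15 min and then measured 0.684, 4.20 and 30.0 RPKM at 30, 60 and 120 min. Il27, a subunit of interleukin-27, measured 0.169, 0.568, 4.68 and 60.9 RPKM over the 4 stimulated libraries. Il1rn, the antagonist of interleukin-1, stood at 2.42 and 12.7 RPKM early and 58.7 and 125.6 RPKM late. Il1a and Csf1 were higher late with their maximum at 60 min. The classical rapid cytokine Tnf overlapped, with 6.51, 115.3, 980.9, 1269.6 and 626.0 RPKM. Il1b, with 0.339, 2.61, 162.1, 462.8 and 155.2 RPKM, overlapped on the deposited values because 120 min lay just below 30 min, and was higher late after rescaling. Ifnb1, the interferon itself, was brief: 0.0774, 3.42, 26.2 and 1.70 RPKM from 15 to 120 min, with overlap on either scaling. Csf2, the growth factor GM-CSF, was likewise highest at 60 min (32.2 RPKM) and was back at 0.829 RPKM by 120 min.

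Chemokine genes were higher late in 13 of 20 cases (65%, against 14.4% of all genes) and lower in none, 7 with a 2-fold gap. Cxcl10, which attracts CXCR3-bearing lymphocytes, measured 4.95, 7.01, 148.0, 647.9 and 2036.6 RPKM. Its 4.38-fold gap had a counting interval of 4.20 to 4.56. Cxcl11, a ligand of the same receptor, had no read at 15 min and measured 0.181, 1.56 and 30.7 RPKM in the later libraries. Among the neutrophil chemokines, Cxcl3 was higher late with a 2-fold gap, at 0.621 RPKM at 30 min (no reads at 15 min) and 5.42 and 3.98 RPKM late, whereas Cxcl1 and Cxcl2 overlapped. Cxcl1 measured 0.135, 5.15, 100.4, 206.0 and 25.8 RPKM, and Cxcl2 29.4 and 421.1 RPKM early against 500.0 and 70.5 RPKM late. The monocyte chemokine Ccl2 overlapped, with 42.3 and 591.0 RPKM early and 1233.4 and 474.2 RPKM late, and was higher late after rescaling.

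Interferon-stimulated genes, most of them antiviral effectors, were nearly all higher late. Of 40 tested, 36 were higher late (90%, against 14.4% of all genes) and none was lower, and all 36 were higher at 120 than at 60 min. A 2-fold gap was left by 11 of them, and the other 25 had 60 min values closer to the early ones. After rescaling 23 of the 36 kept the call, while over all genes 1083 of 1326 kept it. Of the 40 tested, 23 were higher on that scale, against 26.6% of all genes. Ifit1 measured 8.78, 11.5, 17.8, 82.2 and 768.4 RPKM, a gap of 4.62-fold (4.28 to 4.99). Rsad2 (viperin) measured 11.6, 13, 23.1, 140.2 and 1208.1 RPKM, and Isg15, a ubiquitin-like modifier, 9.08, 8.12, 13.6, 48.2 and 115.3 RPKM. Both were high in each late library. Mx1, an antiviral gene whose product is defective in most laboratory mouse strains including C57BL/6, stood at 2.10, 2.36 and 79.6 RPKM at 30, 60 and 120 min, so its call rested on a gap of 0.14 (log2) and was lost on rescaling. Ifit3, Usp18, Igtp and Irgm1 had gaps of 0.06 to 0.14 and lost their call likewise, with 120 min values of 66.7, 87, 62.9 and 205.9 RPKM. Iigp1, Irgm2, Oas2 and Bst2 overlapped. Reads of the Oas, Ifi200, Gbp and Irgm families may be shared between near-identical copies, since how such reads were counted is not stated.

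The promoters of 6 genes from this group and its neighbours are shown because these genes were higher late with a 2-fold gap and hold the letters of a known element. They are the 250 bases before each gene's start, from RefSeq on build GRCm38.p6, written 5′ to 3′ on the gene's strand, with capitals for matches. Capitals mark GAAANNGAAA on either strand (the core of the interferon-stimulated response element) in Ifit1, Isg15, Rsad2, Cxcl10 and Gbp5. They mark the NF-kappaB consensus on either strand in Cxcl10, Gbp5 and Nfkb2. Overlapping matches run together, as in Isg15.
Ifit1 promoter, chr19:34640639-34640888, + strand: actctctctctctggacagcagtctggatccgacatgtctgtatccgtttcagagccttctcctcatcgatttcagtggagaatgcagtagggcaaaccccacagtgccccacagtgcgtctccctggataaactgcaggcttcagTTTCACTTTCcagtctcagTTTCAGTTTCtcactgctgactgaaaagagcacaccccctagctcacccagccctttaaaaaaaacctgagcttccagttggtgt
Isg15 promoter, chr4:156200819-156201068, - strand: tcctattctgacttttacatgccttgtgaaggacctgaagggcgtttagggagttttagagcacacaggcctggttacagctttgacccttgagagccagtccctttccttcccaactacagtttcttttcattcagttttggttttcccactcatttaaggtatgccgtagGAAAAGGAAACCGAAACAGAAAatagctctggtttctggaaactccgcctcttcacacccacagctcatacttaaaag
Rsad2 promoter, chr12:26456453-26456702, - strand: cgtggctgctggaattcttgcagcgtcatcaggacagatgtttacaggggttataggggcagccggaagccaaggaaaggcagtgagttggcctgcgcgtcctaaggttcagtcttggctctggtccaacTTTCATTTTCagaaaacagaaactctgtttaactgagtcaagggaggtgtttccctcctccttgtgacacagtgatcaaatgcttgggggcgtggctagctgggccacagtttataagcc
Cxcl10 promoter, chr5:92348890-92349139, - strand: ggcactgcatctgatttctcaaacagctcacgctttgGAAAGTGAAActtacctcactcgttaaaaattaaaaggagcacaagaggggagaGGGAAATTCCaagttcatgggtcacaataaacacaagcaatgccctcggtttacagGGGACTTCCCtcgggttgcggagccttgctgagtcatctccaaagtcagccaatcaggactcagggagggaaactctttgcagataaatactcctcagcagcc
Gbp5 promoter, chr3:142496684-142496933, + strand: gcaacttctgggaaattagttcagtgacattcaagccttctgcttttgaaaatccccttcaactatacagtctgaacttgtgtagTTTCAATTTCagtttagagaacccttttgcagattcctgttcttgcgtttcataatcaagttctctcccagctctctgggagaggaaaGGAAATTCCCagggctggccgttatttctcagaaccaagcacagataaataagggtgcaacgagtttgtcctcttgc
Nfkb2 promoter, chr19:46304487-46304736, + strand: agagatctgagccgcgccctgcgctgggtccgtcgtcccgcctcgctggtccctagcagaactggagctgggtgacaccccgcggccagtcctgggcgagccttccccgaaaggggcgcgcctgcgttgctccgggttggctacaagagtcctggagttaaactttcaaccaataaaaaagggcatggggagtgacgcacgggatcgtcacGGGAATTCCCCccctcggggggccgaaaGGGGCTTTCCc
Of the 36 interferon-stimulated genes higher late, 28 had a promoter in the table by symbol, and 17 of these (60.7%) held GAAANNGAAA within 250 bases before to 50 bases after the start. The share was 3.21% over the 7456 promoters of all genes tested and 3.49% over all 27025 promoters in the table. Among genes higher late with a 2-fold gap, 139 of 169 had a promoter. Of these 14 (10.1%) held GAAANNGAAA and 20 (14.4%) the NF-kappaB consensus, which 4.98% of the promoters of all genes tested held. The AP-1 letters TGANTCA were in 18 (12.9%) against 4.91%, and the cyclic AMP response element TGACGTCA in 4 (2.88%) against 3.57%. Of the 10 NF-kappaB list genes higher late that had a promoter, 5 held the NF-kappaB consensus. None of the 15 promoters of genes lower late with a 2-fold gap held GAAANNGAAA, TGANTCA, TGACGTCA or the CArG box, and 1 held the NF-kappaB consensus. The CArG box was in 1.26% of the promoters of all genes tested. Egr1 and Ier2 had no promoter in the table. With shares this low, 15 promoters cannot show that an element was lacking. Both strands were searched, and a match describes letters in this window and not a bound site.

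Regulators of the interferon response were higher late in 10 of 20 cases (50%, against 14.4% of all genes) and lower in none. Cish and Socs1, which restrain cytokine receptor signalling, measured 4.4 and 13.7 RPKM and 0.586 and 18.0 RPKM late, with all early values under 1 RPKM. Jak2, a kinase of cytokine receptors, stood at 4.29 and 4.96 RPKM early and 19.3 and 54.0 RPKM late. Irf7 was higher late on the deposited values only, at 28.6, 34.4, 36.2 and 99.3 RPKM. Irf1 overlapped at 161.1, 159.0 and 163.9 RPKM from 30 to 120 min after 18.5 RPKM at 15 min. Stat2, a transcription factor of the interferon receptor, overlapped too, with 15.8 and 16.1 RPKM early and 9.37 and 58 RPKM late.

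Effector genes were higher late across several lists. Of 22 inflammatory enzymes and mediators, 14 (63.6%, against 14.4% of all genes) were higher and 1 lower, 10 with a 2-fold gap upward. Ptgs2, the inducible cyclooxygenase, measured 0.108, 0.259, 7.36, 25.8 and 25.8 RPKM. Nos2, the inducible nitric oxide synthase, stood at 0.158, 0.262 and 63.1 RPKM at 30, 60 and 120 min, so its gap was 0.21 (log2) and its level was high in the 120 min library alone. Saa3, an acute phase protein, was higher late with a gap of 1.97 (log2). Ptgs1, the constitutive cyclooxygenase, was the 1 lower gene, at 2.35 and 3.22 RPKM early and 2.19 and 1.04 RPKM late.

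Of 19 activation and costimulatory surface genes, 13 (68.4%, against 14.4% of all genes) were higher late and none lower. Icam1, an adhesion molecule, measured 6.06 and 49.2 RPKM early and 141.1 and 134.5 RPKM late. Cd69, an early activation marker of lymphocytes, stood at 0.479 and 3.28 RPKM early and at 5.7 and 121.2 RPKM late. Clec4e and Sdc4 were higher late with 2-fold gaps, while Cd83 overlapped, with 4.95 and 69.2 RPKM early and 130.5 and 38.2 RPKM late. The Toll-like receptor pathway had 11 of 29 higher (37.9%, against 14.4% of all genes) and 1 lower, with smaller gaps. It had 12 higher and 4 lower after rescaling, beside 26.6% and 24.5% of all genes. Irak2, a kinase of the adaptor complex, had the only 2-fold gap, at 4.52 and 6.80 RPKM early and 21.4 and 24.0 RPKM late. Tlr2, Tlr1, Myd88 and Ikbke were also higher, and Tab1 was lower at 2.81, 2.99, 1.33 and 0.825 RPKM. Tlr4 itself overlapped, at 10.4, 11.9, 12.8 and 5.17 RPKM over the stimulated libraries.

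Apoptosis regulators were higher late in 8 of 18 cases (44.4%, against 14.4% of all genes) and lower in 1. After rescaling 9 were higher and 3 lower, beside 26.6% and 24.5% of all genes. Ripk2, a kinase downstream of the NOD receptors, measured 4.12, 4.67, 16.2, 72.5 and 107.0 RPKM, and Casp4, an inflammatory caspase, 5.25 and 10.5 RPKM early and 27.6 and 44.2 RPKM late. Bmf, a BH3-only killer protein, was the lower gene, at 2.03, 1.30, 0.439 and 0.0870 RPKM. Bcl2a1b was higher late but shares sequence with its sister copies. Glycolysis and glucose transport had 7 of 16 higher (43.8%, against 14.4% of all genes) and none lower. On the rescaled values 13 were higher and 1 lower, beside 26.6% and 24.5% of all genes. Slc2a6, a glucose transporter family member, had the only 2-fold gap, at 3.01 and 4.42 RPKM early and 15.0 and 16.9 RPKM late. The regulatory enzyme gene Pfkfb3 stood at 3.89, 4.03, 7.15 and 14.6 RPKM and Hk2 at 3.54, 4.24, 7.11 and 11.2 RPKM.

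Of 19 mRNA decay factors 5 were higher late (26.3%, against 14.4% of all genes) and 2 lower (10.5%, against 11.8%). After rescaling 11 were higher and 5 lower, beside 26.6% and 24.5% of all genes. Tiparp, with 4.32, 11.6, 35.0 and 30.5 RPKM, had a 2-fold gap upward, and Dcp2 and Xrn1, the decapping enzyme and its exonuclease, were higher without one. Zfp36l2, a protein that directs AU-rich mRNA to decay, was lower late with 24.4, 39.6, 38.9, 13.5 and 0.970 RPKM. Zfp36 itself overlapped by a small margin, with 201.6 and 709.6 RPKM early and 236.9 and 112.0 RPKM late, and was lower late after rescaling. Of 13 MAP kinase phosphatases and Sprouty proteins, 2 (15.4%) were higher late and 1 (7.69%) lower, close to or below the shares over all genes. Dusp6, which inactivates ERK, was lower late at 16.2, 13, 3.3 and 0.792 RPKM, Dusp16 was higher at 2.52, 2.52, 15.3 and 11.3 RPKM, and Dusp1 overlapped at 64.4, 450.8, 241.4 and 13.2 RPKM.

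Immediate early regulators, transcription factors and signalling genes induced without new protein, held the 3 largest downward gaps. Of 29 tested, 9 (31.0%, against 11.8% of all genes) were lower late and 3 (10.3%, against 14.4%) were higher. The median late minus early difference was -0.60 (log2). All 9 stayed lower after rescaling. On that scale 9 of the 29 were lower and 5 higher, beside 24.5% and 26.6% of all genes. Fos, a subunit of AP-1, measured 2.64, 67.8, 85.7, 8.98 and 2.07 RPKM from 0 to 120 min, so the lowest early value was 7.55-fold (6.74 to 8.48) the highest late one. Egr1, a zinc finger factor, measured 0.606, 108.6, 311.0, 20.9 and 1.05 RPKM, a 5.21-fold gap (4.89 to 5.55). Ier2 had 55.4 and 59.8 RPKM early and 13.5 and 1.79 RPKM late, and Jun 51.7 and 84.2 RPKM early and 19.0 and 7.82 RPKM late. These 4 genes were highest early and still above 0 min at 60 min. At 120 min they were back near or below 0 min.

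Btg2 and Ier3 were lower late with gaps under 2-fold, and their 60 min values (22.5 and 30.0 RPKM) still stood above 0 min. The Kruppel-like factor genes Klf2, Klf4 and Klf10 were also lower late with gaps under 2-fold. Most other members overlapped because 60 min was still high. Egr2 measured 7.72, 43.1, 29.6 and 0.747 RPKM, Junb 94.2, 231.8, 231.4 and 40.9 RPKM and Myc 7.04, 27.7, 41.3 and 1.32 RPKM over the stimulated libraries. The nuclear receptor gene Nr4a3 was an exception with a 2-fold gap upward, at 0.158, 0.121, 1.75 and 6.76 RPKM. For Fosl1 the 30 and 120 min values were 0.235 and 0.236 RPKM, a distance within counting error.

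Of the 19 genes lower late with a 2-fold gap, 4 (Fos, Egr1, Ier2 and Jun) had both early values at least 2-fold above 0 min. The other 15 lay within 2-fold of 0 min in both early libraries, and all 15 were above both late values at 0 min. At 120 min 13 of the 19 stood at least 2-fold below 0 min. Arrdc3, an alpha-arrestin that limits nutrient uptake, measured 4.10, 5.35, 2.43, 0.537 and 0.135 RPKM. Lyl1, a helix-loop-helix factor of blood cells, measured 17.4, 23.0, 15.5, 5.52 and 0.280 RPKM. Gpr146, Rab3a, Rab40c, Zbtb34, AI467606 and Bhlhe41 had gaps of -1.09 to -1.30 (log2). Rab3a rested on 5 reads in each late library.

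Genes of the resting macrophage went both ways. Of 24 myeloid and quiescence transcription factors 8 (33.3%) were lower and 6 (25%) higher, and of 25 resting surface receptors 5 (20%) were lower and 6 (24%) higher, against 11.8% lower and 14.4% higher over all genes. After rescaling 10 of the 24 transcription factors were lower and 6 higher, and 10 of the 25 receptors were lower and 6 higher. The shares over all genes were then 24.5% lower and 26.6% higher. Both lists had medians below 0, at -0.49 and -0.12 (log2), against -0.11 over all genes. Cebpa, a myeloid differentiation factor, measured 5.4, 6.1, 6.31, 4.29 and 0.324 RPKM. Hhex was lower late on the deposited values only. Tcfec, a helix-loop-helix factor of the MiT family, went the other way, with 11.1 and 17.1 RPKM early and 92.6 and 43.7 RPKM late. Cxcr4, the CXCL12 receptor, stood at 11.2, 13.1, 7.39 and 0.472 RPKM and the receptor gene Cd300lb at 31.2, 28.3, 15.6 and 0.682 RPKM. Msr1, a scavenger receptor, and Tnfrsf1b, a tumour necrosis factor receptor, were higher late with 2-fold gaps. Csf1r, the M-CSF receptor, overlapped at 86.5, 98.6, 94.9 and 41.8 RPKM.

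Of 17 arrestin and growth control genes, 6 (35.3%, against 11.8% of all genes) were lower late and 2 (11.8%, against 14.4%) higher. The stress-response genes Sesn1 and Sesn2 and the signalling regulator Rgs2 were lower, and the cell cycle inhibitor Cdkn1a was higher at 56.5, 199.1, 409.6 and 559.3 RPKM. Txnip, an arrestin that limits glucose uptake, was already low at 30 min, with 79.7, 78.3, 16.4, 5.89 and 18.7 RPKM from 0 to 120 min. Its sides overlapped because the 120 min value lay above the 30 min one. Malat1, Neat1 and Xist, noncoding RNAs that are kept in the nucleus, were all 3 lower late in the cytoplasmic libraries. Malat1 measured 38.2, 38.9, 31.6, 12.5 and 15.3 RPKM, and carryover of nuclear RNA into the cytoplasmic fraction was not measured.

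Lists of general cell functions mostly had few calls on the deposited values, where 14.4% of all genes were higher late and 11.8% lower. Of 21 mitotic genes and 18 cholesterol genes none was higher late, with 0 and 1 lower. The respiratory chain had 2 of 23 higher, the lysosome 1 of 23 higher and 2 lower, and endoplasmic reticulum chaperones 1 of 21 each way. Of 17 cytosolic ribosomal protein genes 4 were lower (23.5%) and 1 higher, on low values for those called (0.445 to 7.7 RPKM in the 4 libraries) and with pseudogene copies that may share reads. After rescaling the calls were more, with 7 higher and 5 lower for the chaperones, 4 and 7 for the lysosome, 3 and 5 for cholesterol genes, 7 and 0 for the respiratory chain and 2 each way for mitotic genes, beside 26.6% and 24.5% of all genes. In these lists the 60 min library held the highest value for most members, for example 20 of 21 mitotic genes. Of 16 housekeeping genes 3 were higher (18.8%) and 2 lower (12.5%) on the deposited values, near the shares over all genes. Actb measured 1136.7, 1102.4, 1360.3, 1513.3 and 1577.4 RPKM and was higher late on the deposited values only, by 0.15 (log2).

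**Figure D4:**
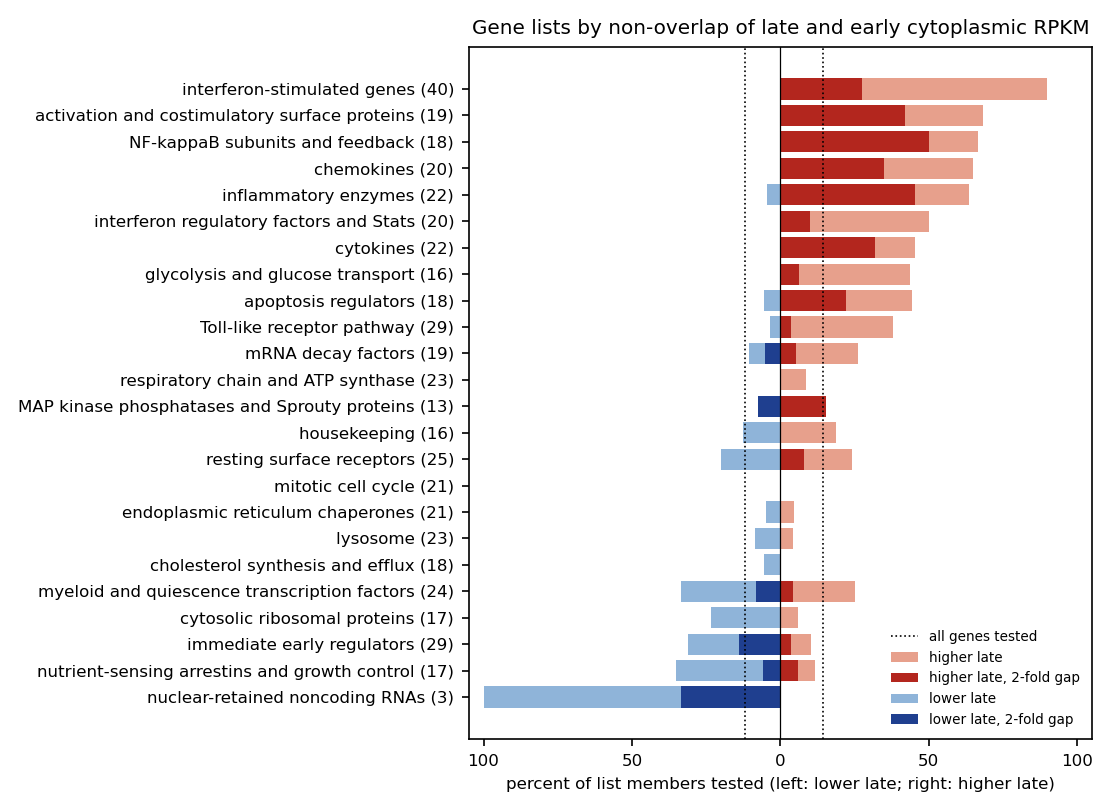
Percent of the members tested in each of 24 gene lists (number tested in brackets) that were lower late (left, blue) or higher late (right, red) in cytoplasmic RNA, with the share that left a 2-fold gap in the darker colour; dotted lines mark the shares over all genes tested, 11.8% and 14.4%. Interferon-stimulated genes reach 90% higher, and the nuclear noncoding RNA bar is 3 genes.

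The same contrast in the other fractions used other libraries. Among genes tested in both, 19.0% were higher late and 30.5% lower late in chromatin RNA, which is enriched in nascent transcripts, and 15.4% and 37.6% in nucleoplasmic RNA. Of 1284 genes higher late in the cytoplasm that were tested in chromatin, 791 (61.6%) were also higher there. In nucleoplasm this held for 861 of 1303 (66.1%). Of the genes lower late in the cytoplasm, 379 of 780 (48.6%) were lower in chromatin and 774 of 966 (80.1%) in nucleoplasm. For genes with a 2-fold gap upward the counts were 124 of 168 in chromatin and 168 of 169 in nucleoplasm, and for those with a 2-fold gap downward 16 of 18 and 18 of 18. Whether the fractions of a time came from the same plates is not given in the labels.

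The other 44 of the 168 overlapped in chromatin, and in each of the 44 the chromatin level at 30 min was already at least 2-fold above 0 min. The cytoplasmic level had passed 2-fold by 30 min in 18 of them. Choosing genes by overlap in chromatin favours a raised 30 min chromatin value, so these counts only describe the 44. The same counts were not made for the 124 genes higher in chromatin. Ripk2 measured 5.07, 8.14, 52.7, 49.7 and 64.5 RPKM in chromatin while the cytoplasm went from 16.2 RPKM at 30 min to 72.5 RPKM at 60 min. Dusp16 measured 1.46, 1.54, 7.98, 6.38 and 10.1 RPKM in chromatin, with cytoplasmic RNA at 2.52 RPKM in both early libraries. For Slc2a6 chromatin stood at 42.8 and 97.2 RPKM early and 95.1 and 137.9 RPKM late, and the cytoplasm at 3.01 and 4.42 RPKM early. Nfkbie and Relb were highest in chromatin at 30 min (32.7 and 14.6 RPKM), when their cytoplasmic values were 8.74 and 6.35 RPKM. In 21 of the 44 the chromatin value was highest at 30 min.

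**Figure D5:**
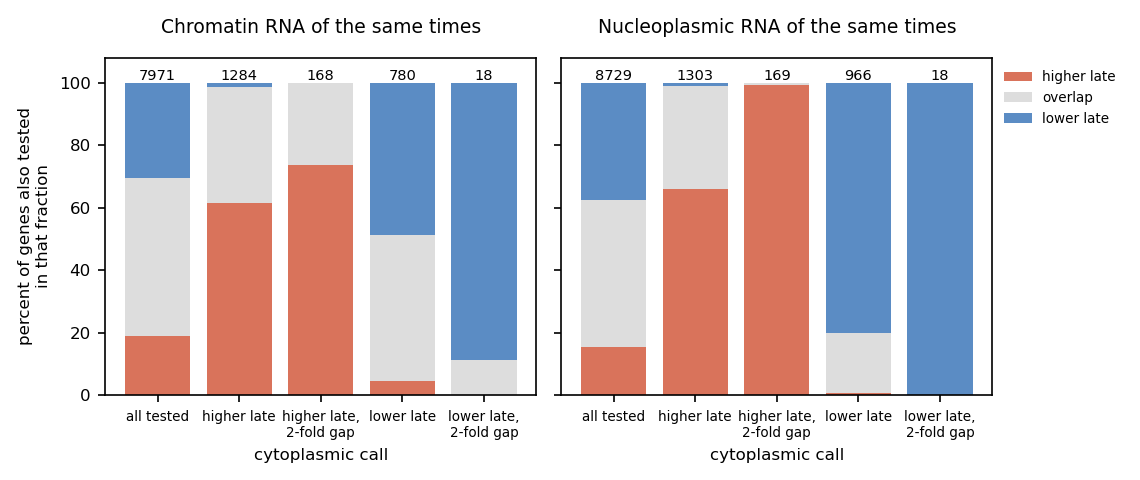
Percent of genes higher late (red), overlapping (grey) or lower late (blue) in chromatin RNA (left) and nucleoplasmic RNA (right), for all genes tested and for each cytoplasmic call on the x axis; the number of genes also tested in that fraction stands above each bar. The bars of genes higher late in the cytoplasm are 61.6% red in chromatin and 66.1% red in nucleoplasm, against 19.0% and 15.4% over all genes.

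The authors' classes of induced genes were made from the same series and so are not independent of these values. The shares over all genes tested were 14.4% higher late, 11.8% lower late and 1.83% with a 2-fold gap upward. Of 16 class A1 genes tested, none was higher late and 5 were lower. Class A2 had 12 higher and 1 lower of 45. From there none was lower, with 39 of 43 higher in class B, 56 of 78 in class C, 78 of 80 in class D, 78 of 82 in class E and 54 of 83 in class F. Genes with a 2-fold gap upward numbered 17, 29, 53, 12 and none in classes B to F. Of the authors' CpG promoter genes 166 of 236 (70.3%) were higher late, and of their LCG promoter genes 151 of 191 (79.1%). The authors' 12 groups of all listed genes ranged from 85.6% higher and 0.0% lower in group 2 to 0.0% higher and 40.6% lower in group 5.

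A model with an error term was fitted as a second reading, with the 2 times of a side standing in for replicates. limma on log2(RPKM + 0.5) called 147 genes higher late (1.60%) and 20 lower (0.217%) at a Benjamini-Hochberg adjusted p under 0.05, of which 136 and 18 did not overlap. With 2 residual degrees of freedom a gene, the estimated prior degrees of freedom were infinite on the deposited values, so that every p-value rests on a spread shared by genes of like level. After rescaling to the median the prior was 2.39 degrees of freedom. For Irg1 the difference was 6.16 ± 0.56 (log2, SE; limma adjusted p = 4.37e-24), for Il12b 5.66 ± 0.61 (limma adjusted p = 4.19e-17) and for Egr1 -5.00 ± 0.56 (limma adjusted p = 1.53e-15). After rescaling to the median limma called no gene in either direction, with a smallest adjusted p of 0.455 and 609 and 375 genes under an unadjusted 0.05. The 2-fold gap counts were 152 and 26 after rescaling to the median and 130 and 41 after rescaling to the upper quartile. They were 338 and 54 without the 30 min library, 495 and 1532 without 60 min and 364 and 23 without 120 min.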

How the data were processed

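RNA of 3 fractions at 5 times was sequenced, 1 library each, of which the cytoplasmic libraries carry this comparison. Cells were lysed with NP40, nuclei were spun through sucrose, RNA was depleted of ribosomal RNA and libraries were stranded (dUTP), per the labels' protocols. TopHat and the mm9 build were named in the submitters' processing notes, and for versions and the counting step nothing is given in the sources used here. Per the file headers, the authors deposited RPKM values for 10020 transcripts. Another 3 columns of per-gene values matched no sample and were not used.

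Whole reads were recovered from the RPKM steps for 100.0% of genes (tolerance 0.02 reads), which gave the depths and 95% exact counting intervals; these cover counting error only. Values without reads carry a small stand-in. Calls compare deposited RPKM; gaps and differences use log2(RPKM + 0.5). Named genes were the 15 largest gaps per direction kept on both scalings, up to 4 per list and direction, exceptions and a set of well-known genes. Other list members given with values were chosen after their values were seen, and some are not reported here. The members and lists were chosen with earlier results of these data known. limma 3.58.1 (R 4.3.3) fitted early against late, with a trended prior, and was tested on simulated data. Older gene symbols and promoters came from RefSeq. Other scalings, filters, pseudocounts and left-out libraries were tried. No p-value here measures variation between cultures.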

Additional observations from a re-analysis of the deposited data

Results flagged for a closer look

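In 3 of the genes named from the lists, the late and early values separated in opposite directions in 2 fractions, and the difference between the fractions was not tested. Rela was higher late in the cytoplasm by 0.96 (log2), with 18.0 and 27.2 RPKM early and 36.8 and 51.6 RPKM late, but lower late in chromatin, with 13.9 and 21.4 RPKM early and 13.9 and 13.4 RPKM late, where the nearest values were equal to the digits shown. Atp5o was higher late in the cytoplasm by 0.62, at 4.63 and 4.22 RPKM early and 8.47 and 5.87 RPKM late, and lower late in nucleoplasm by -0.29, with a nearest fold in the cytoplasm of 1.27 (0.904 to 1.79). Rpl7 was lower late in the cytoplasm by -0.43 and higher late in chromatin by 0.63, with a nearest cytoplasmic fold of 1.04 (0.552 to 1.95). The cytoplasmic calls of Atp5o and Rpl7 are thus within counting error. Over all genes 16 were higher late in the cytoplasm and lower in chromatin and 35 the reverse, none with a 2-fold gap. Against nucleoplasm 14 were higher in the cytoplasm and lower there, and 6 the reverse.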

How the results depend on the processing

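Rescaling to the median moved the counts to 2449 higher and 2260 lower, and rescaling to the upper quartile moved the lower count to 3562 and that with a 2-fold gap to 41; limma called 0 genes in each direction on both scalings, where 609 and 375 had an unadjusted p under 0.05 on the first. Requiring counting intervals apart left 725 higher and 222 lower, a filter of 5 RPKM left 368 lower and 96 higher by limma, and pseudocounts of 0.1 and 1 gave 44 and 12 genes lower with a 2-fold gap. Without 1 library the higher count ranged from 1474 to 6777, the lower from 1206 to 6946, those with a 2-fold gap from 179 to 495 and from 23 to 1532, and limma's from 2 to 789 and from 0 to 3887. The lower count was 1827 without 15 min and 6946 without 60 min, and the higher count 2000 without 30 min and 6777 without 120 min. With a 2-fold gap, 338 and 54 genes were called without 30 min, 495 and 1532 without 60 min and 364 higher without 120 min. limma called 2 and 1 without 15 min, 19 and 0 without 30 min, 789 and 3887 without 60 min and 9 lower without 120 min. The cause was not tested. Of 120 named genes, 114 kept their call under median rescaling, 5 lost it and 1 gained it. A pseudocount of 0.1 could not change these calls, which use no pseudocount, nor the direction of a called gene. No paired analysis was possible because each fraction and time had 1 library.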

Other observations

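Zinc finger genes stood out among the genes lower late, in a family picked after its values were seen. Of 173 tested genes whose symbol starts with Zfp, 81 (46.8%, against 11.8% of all genes) were lower late and 7 higher, with a median late minus early difference of -0.44 (log2). After rescaling 93 (53.8%, against 24.5%) were lower and 12 higher. Zbtb genes, a second family of DNA-binding proteins, had 11 of 27 lower and 1 higher.

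Proteasome genes were picked in the same way. Of 45 whose symbol starts with Psm, 11 (24.4%, against 14.4% of all genes) were higher late and 0 lower. After rescaling 27 were higher and 1 lower, against 26.6% and 24.5% of all genes. All 6 Gbp genes, guanylate-binding proteins of antimicrobial defence, were higher late on both scalings.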
